A study of Mus musculus with 8 samples.

Results

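Transcripts of 36 listed interferon-stimulated genes were followed in whole mouse uteri with and without the transcription factor FOXA2. A listed gene was measured where the array had a probe set paired with its symbol alone, and where there were several the one with the highest mean over all arrays was taken. This held for 32 of the 36 genes, out of 19938 genes tested. Isg15, Gbp2 and Gbp6 were matched only by probe sets that also carry other genes and are described apart, and Ifi44 was not analysed here. The values came from 8 uteri on 8 Affymetrix arrays, 1 per animal, and are log2 intensities. The 4 control females were Pgr+/+ Foxa2+/+. The 4 Foxa2-deleted females were PgrCre/+ Foxa2flox/flox, with Cre recombinase expressed from 1 allele of the progesterone receptor gene Pgr and so made in uterine cells that use this gene. Deletion of Foxa2, presence of Cre and loss of 1 intact Pgr allele went together and cannot be told apart. Females of both genotypes had been mated with vasectomised wild type males and were killed on day 3.5 of pseudopregnancy, so no embryos were present. The labels give neither the strain nor the age of the animals.

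Interferons are secreted cytokines that put cells into an antiviral state. Type I interferons bind a receptor served by the kinases JAK1 and TYK2, which leads to a complex that contains STAT2 and IRF9 and binds the interferon-stimulated response element, or ISRE, in front of its target genes. Interferon gamma signals through JAK1 and JAK2, and its targets carry a different sequence, the gamma-activated site. The products of the target genes sense viral nucleic acid, degrade RNA, block translation or present peptides to T cells. In the uterus these genes are known from early pregnancy, since in ruminants the conceptus signals its presence with an interferon, and interferon epsilon is made by the epithelium of the female reproductive tract.

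The elements named above can be seen in the promoters. Windows from 250 bases before to 50 bases after an annotated start were available from RefSeq (build GRCm38.p6) for 27 of the 36 listed genes, and were searched on both strands for GAAANNGAAA as the ISRE core, TTCNNNGAA as the gamma-activated site and TGTTTAC as a forkhead core, the kind of sequence FOXA proteins bind. The ISRE core was present in 13 of the 27 genes (48.1%), against 3.99% of all 27025 genes with such windows. The gamma-activated site was present in 7 (25.9%, against 9.55% of all genes) and the forkhead core in 2, Gbp3 and Rsad2 (7.41%, against 4.05%). These matches are descriptions of letters and were not tested for binding. The stretches below belong to genes whose values are given in detail further on; they are written on the strand of the gene, 5′ to 3′, with the ISRE core or its reverse complement in capitals.
Oas3 (chr5:120777710-120777749, minus strand): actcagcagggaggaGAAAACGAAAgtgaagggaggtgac
Ddx58 (chr4:40239799-40239838, minus strand): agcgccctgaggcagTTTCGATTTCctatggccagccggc
Rsad2 (chr12:26456548-26456587, minus strand): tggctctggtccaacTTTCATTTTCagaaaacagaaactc
Ifit1 (chr19:34640770-34640828, plus strand): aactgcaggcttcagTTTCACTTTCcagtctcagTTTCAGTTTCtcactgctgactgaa
Gbp7 (chr3:142530268-142530307, plus strand): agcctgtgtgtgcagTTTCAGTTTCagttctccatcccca
Gbp3 (chr3:142559984-142560029, plus strand): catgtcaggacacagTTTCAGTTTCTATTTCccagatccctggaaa
The core began 75 bases before the annotated start in Oas3, 120 in Rsad2, 104 in Ifit1, 53 in Gbp7 and 45 in Gbp3. In Ddx58 it lay just after the start. Ifit1 and Gbp3 each held 2 matches, which overlap in Gbp3, and Gbp7 also held 2 gamma-activated sites. The window of Oasl1 held no ISRE core.

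In the targeted gene the arrays followed their labels. The probe set of Foxa2 read 8.61, 8.82, 8.74 and 8.73 in controls and 8.22, 8.20, 8.21 and 8.21 in deleted uteri, a log2 difference of -0.52 (SE 0.05; limma, adjusted p = 0.0013) with no overlap. The sources used here do not say whether this probe set lies inside the floxed segment. Pgr read 11.15, 11.27, 11.24 and 11.26 in controls and 11.73, 11.35, 11.51 and 11.81 in deleted uteri, which lack 1 intact allele, and rose by 0.37 (SE 0.10; limma, adjusted p = 0.043), a call that held with deleted uterus 2 or 3 omitted and with no other array omitted (adjusted p up to 0.105). As a check of the tissue, the 13 stromal and 10 smooth muscle markers had mean levels from 10.90 to 11.99 on the 8 arrays. Array medians ran from 8.25 to 8.32. The pairwise correlation of arrays over genes, a description since genes are not replicates, ran from 0.9961 to 0.9968 among controls and from 0.9805 to 0.9900 among deleted uteri, and Foxa2-deleted replicate 3 had the lowest of 8 array weights, 0.405. Since whole tissue was used, fewer cells of a type and less RNA per cell cannot be told apart.

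Most interferon-stimulated genes did not pass the test between the genotypes, and those that lay far from the controls went in both directions. Oasl1, of the OAS family, rose 1.78-fold and Ddx58, which encodes the RNA sensor RIG-I, fell 1.31-fold, while the other 30 of the 32 genes did not pass an adjusted p of 0.05 (limma, adjusted over all genes tested). Over all genes tested 2209 (11.1%) passed, 4.50% higher and 6.58% lower in deleted uteri, so 1 higher and 1 lower of 32 is close to that background. The 4 deleted values all lay above the 4 controls in Oasl1, Oas3 and Mx1, against 9.55% of all genes, and all below them in Ddx58 and Gbp7, against 11.6%. The log2 difference, deleted minus control, ran from -0.55 in Gbp3 to 1.12 in Mx1. Its median over the 32 genes was -0.03, beside 0.01 over all genes, and it lay between -0.11 and 0.02 under other scalings, weights and filters, so that its sign turned with the scaling. No detection call came with the values, and 7 members, Mx1, Mx2, Oas3, Oasl1, Ifit2, Rsad2 and Dhx58, had control means within the range of Y-linked genes, which female tissue lacks (4.32 to 8.99 by probe set). Whether their control levels lie above background is unknown.

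The pattern that the map of single arrays brings out is a single uterus. Foxa2-deleted replicate 3 had the highest value of the 4 deleted uteri in 29 of the 32 genes and the highest of all 8 in 22, while over all genes these shares were 27.4% and 20.5%. Relative to each gene's control mean, the median over the members was -0.16 on Foxa2-deleted replicate 1, -0.15 on replicate 2, 0.49 on replicate 3 and -0.09 on replicate 4. Replicate 3 was above every control in 23 of the 32 genes and below every control in 2, Ddx58 and Gbp7. Over all genes replicate 3 was above every control in 35.5% and below every control in 34.1%. Replicates 1, 2 and 4 were below every control in 18, 17 and 13 of the 32 genes, beside 32.2%, 27.6% and 32.3% of all genes. They were above every control in 4, 5 and 4, beside 33.3%, 32.5% and 23.7% of all genes. The SD over the deleted uteri was larger than that over the controls in 27 of the 32 genes (84.4%), beside 70.3% of all genes, with a median SD of 0.36 against 0.12.

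**Figure D1:**
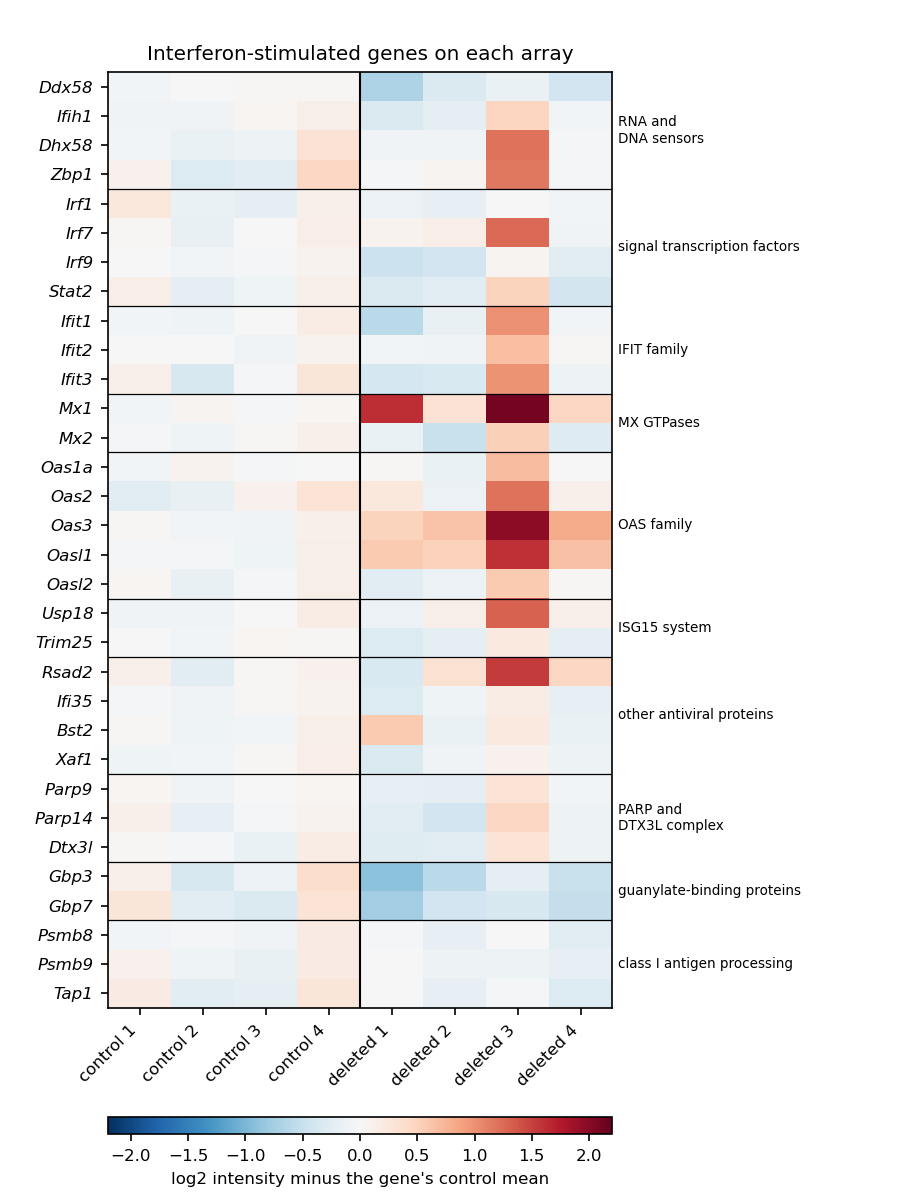
Each row is 1 of the 32 interferon-stimulated genes, grouped by role, and each column 1 array; colour gives the log2 intensity minus the gene's mean over the 4 controls. The column of Foxa2-deleted replicate 3 is red in most rows, with Mx1 at 2.10 and Oas3 at 1.97 above the control mean, while the guanylate-binding protein rows Gbp3 and Gbp7 are blue on all 4 deleted arrays.

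The OAS family held 1 gene that passed and 1 more whose genotypes did not overlap. Its members make 2′-5′ oligoadenylates that switch on RNase L, or, in the OAS-like proteins, act on other antiviral steps. Oasl1 read 8.60, 8.60, 8.52 and 8.75 in controls and 9.19, 9.13, 10.22 and 9.27 in deleted uteri. Every deleted uterus was above every control, and replicate 3 was far above the other deleted ones. Oasl1 rose by 0.83 (SE 0.22; limma, adjusted p = 0.044). Its call held on omitting Foxa2-deleted replicate 2, 3 or 4 (adjusted p from 0.0023 to 0.046) and did not hold on omitting Foxa2-deleted replicate 1 or any 1 of the controls (adjusted p from 0.062 to 0.115). OASL1 is known in the mouse as a repressor of IRF7 translation.

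Oas3, the largest enzyme of the family, also separated the genotypes. It read 7.93, 7.85, 7.83 and 8.01 in controls and 8.40, 8.54, 9.87 and 8.72 in deleted uteri, again with no overlap and with replicate 3 highest. The log2 difference was 0.98 (SE 0.28), which did not pass over 8 arrays (adjusted p = 0.057, limma) and did on omitting Foxa2-deleted replicate 3 (log2 difference 0.65, SE 0.08, adjusted p = 0.0038) or, in another fit, replicate 2 (adjusted p = 0.047). On the other deleted arrays the means of Oasl1 and Oas3 lay 0.58 and 0.65 above the control mean. Both genes were picked out for their lack of overlap, so a gap on those arrays follows from that choice.

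In the other 3 OAS genes only replicate 3 lay above every control. Oasl2, the OAS member with the highest mean level, read 11.21, 11.01, 11.15 and 11.30 in controls and 10.94, 11.04, 11.75 and 11.19 in deleted uteri. Replicate 3 lay above every control, replicate 1 below every control and the other deleted uteri among the controls. The log2 difference was 0.06 (SE 0.16, adjusted p = 0.81, limma). Oas2 and Oas1a had log2 differences of 0.35 (SE 0.26) and 0.14 (SE 0.16), and without replicate 3 those of Oas2, Oas1a and Oasl2 were 0.07, -0.05 and -0.11. A further probe set shared by Oas1a and Oas1g, which cannot be assigned to either, read 10.38 on replicate 3 and from 9.18 to 9.58 on the other 7 arrays.

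Mx1 and Mx2 encode dynamin-like GTPases that trap viral components, and Mx1 is defective in many inbred laboratory strains. Mx1 read 7.50, 7.62, 7.54 and 7.61 in controls and 9.20, 7.88, 9.67 and 8.02 in deleted uteri. The genotypes did not overlap, yet the deleted uteri fell apart among themselves, with replicates 1 and 3 more than 1 unit above replicates 2 and 4. The log2 difference of 1.12 (SE 0.36), a 2.18-fold higher mean, was the largest of the 32 and did not pass (adjusted p = 0.078, limma). On omitting Foxa2-deleted replicate 2 the adjusted p was 0.028, and on omitting replicate 4 it was 0.044. Replicate 1 lay above every control in 4 members, Mx1, Oas3, Oasl1 and Bst2, beside 33.3% of all genes. Mx2 did not follow Mx1 and read 7.59, 7.54, 7.65 and 7.75 in controls and 7.49, 7.14, 8.16 and 7.35 in deleted uteri.

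**Figure D2:**
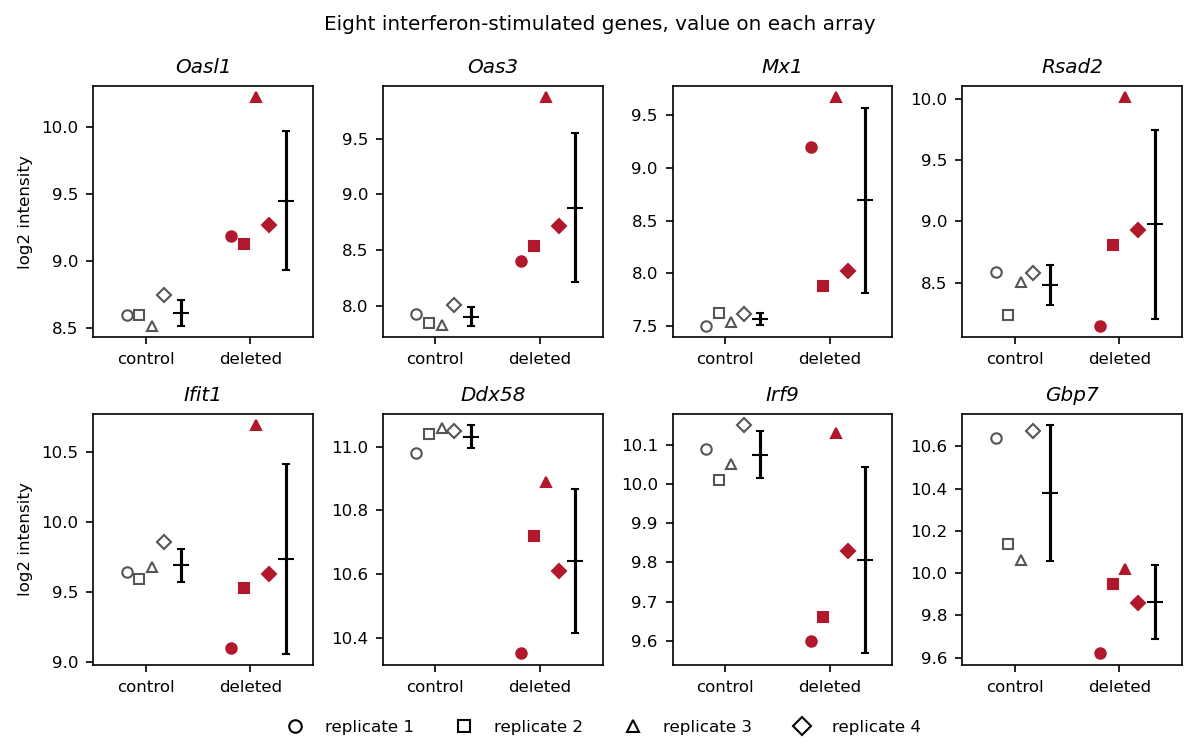
Log2 intensity of 8 interferon-stimulated genes on each array, with symbols for replicate numbers, open grey for controls and filled red for Foxa2-deleted uteri, and mean ± SD (n = 4) as black bars; the vertical axes differ between genes and do not start at 0. Oasl1, Oas3 and Mx1 show no overlap with higher deleted values, Ddx58 and Gbp7 no overlap with lower ones, and Rsad2, Ifit1 and Irf9 overlap, with replicate 3 (triangle) the highest deleted uterus in all 8 panels.

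Among the sensors of viral nucleic acid Ddx58 stood apart from the rest. It read 10.98, 11.04, 11.06 and 11.05 in controls and 10.35, 10.72, 10.89 and 10.61 in deleted uteri. All deleted uteri were lower, and replicate 3, although the highest of them, was still below every control. Ddx58 fell by 0.39 (SE 0.10, adjusted p = 0.043, limma). The call held with either of Foxa2-deleted replicates 2 and 3 omitted (adjusted p = 0.044 and 0.014) and was lost with any 1 of the other 6 arrays omitted (adjusted p from 0.054 to 0.111) and under centring on the array median (adjusted p = 0.056).

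The other sensors did not separate the genotypes. Dhx58, which encodes the RIG-I-like regulator LGP2, read 8.69, 8.59, 8.63 and 9.06 in controls and 8.67, 8.67, 9.93 and 8.72 in deleted uteri, so that replicate 3 alone lay outside the range of the controls. Zbp1, a sensor of Z-form nucleic acids that can start cell death, read 9.34, 8.96, 9.01 and 9.70 in controls and 9.22, 9.31, 10.41 and 9.23 in deleted uteri. The other 3 deleted values of each gene lay inside the range of the controls. The log2 differences of Dhx58 and Zbp1 were 0.26 (SE 0.27) and 0.29 (SE 0.28) over 8 arrays, and -0.06 and 0.00083 without replicate 3. Ifih1, which encodes the long double-stranded RNA sensor MDA5, had a log2 difference of -0.02 (SE 0.15).

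Of the 4 transcription factors that carry the signal none passed the test over 8 arrays, and replicate 3 lay above every control in Stat2 and Irf7 and not in Irf9 or Irf1. Stat2, the subunit that gives the type I complex its activation domain, read 10.35, 10.01, 10.11 and 10.34 in controls and 9.89, 9.95, 10.70 and 9.80 in deleted uteri. Its 3 other deleted values lay below every control and replicate 3 above every control. Over 8 arrays the log2 difference was -0.12 (SE 0.19, adjusted p = 0.69, limma). Irf9, which gives the complex its DNA contact, read 10.09, 10.01, 10.05 and 10.15 in controls and 9.60, 9.66, 10.13 and 9.83 in deleted uteri. The log2 difference of Irf9 was -0.27 (SE 0.11, adjusted p = 0.13, limma), and it passed as lower without replicate 3 (log2 difference -0.38, SE 0.07, adjusted p = 0.014). The array left out was singled out for high values in these genes, so that call is no separate result. Irf7, the factor that amplifies interferon production, read 9.54, 9.36, 9.52 and 9.66 in controls and 9.59, 9.67, 10.76 and 9.44 in deleted uteri, with replicate 3 more than 1 unit above any other array. Irf1, which is induced mainly by interferon gamma, had a log2 difference of -0.09 (SE 0.10), and its second probe set one of -0.12 (SE 0.06).

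The IFIT proteins bind foreign RNA ends and block its translation. Ifit3, the IFIT gene with the highest mean level, read 10.06, 9.59, 9.91 and 10.21 in controls and 9.56, 9.60, 10.93 and 9.83 in deleted uteri. Ifit1 read 9.64, 9.59, 9.68 and 9.86 in controls and 9.10, 9.53, 10.69 and 9.63 in deleted uteri. In both genes replicate 3 was more than 1 unit above any other deleted uterus, which themselves lay among or below the controls. Over 8 arrays the log2 differences of Ifit1, Ifit2 and Ifit3 were 0.04 (SE 0.28), 0.13 (SE 0.15) and 0.04 (SE 0.29). Without replicate 3 all 3 turned to lower values, -0.27, -0.04 and -0.28, none of which passed (adjusted p from 0.20 to 0.68, limma).

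ISG15 is a ubiquitin-like protein attached to other proteins under interferon, USP18 removes it and dampens the receptor, and TRIM25 is a ligase that activates RIG-I. Usp18 read 9.81, 9.80, 9.87 and 10.05 in controls and 9.76, 10.02, 11.18 and 10 in deleted uteri, so that 3 deleted uteri lay among or just below the controls and replicate 3 more than 1 unit above them. Its log2 difference was 0.36 (SE 0.27, adjusted p = 0.38, limma), and 0.04 without replicate 3. Trim25 had a log2 difference of -0.13 (SE 0.11), and passed as lower without replicate 3 (log2 difference -0.24, SE 0.05, adjusted p = 0.026, limma). As in Irf9, that call rests on the choice of the array left out. The probe set shared by Isg15 and the predicted gene Gm9706 read 7.71, 7.73, 7.76 and 7.81 in controls and 7.69, 8.03, 8.21 and 7.64 in deleted uteri. On that shared probe set replicates 2 and 3 lay above the controls and replicates 1 and 4 below them.

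Of the other antiviral genes, Rsad2, which encodes the radical SAM enzyme viperin, spread the most. It read 8.59, 8.24, 8.51 and 8.58 in controls and 8.15, 8.81, 10.01 and 8.93 in deleted uteri. Replicate 1 was below every control and the other 3 above every control, with a log2 difference of 0.50 (SE 0.33, adjusted p = 0.32, limma). Bst2, which encodes tetherin, a protein that holds budding virus at the cell surface, was with Psmb9 and Tap1 1 of the 3 members in which replicate 1, not replicate 3, was the highest deleted uterus. It read 10.18, 10.06, 10.08 and 10.27 in controls and 10.73, 10.01, 10.37 and 10 in deleted uteri, and the genotypes overlapped. Ifi35 and Xaf1, the second a binding partner of the apoptosis inhibitor XIAP, had log2 differences of -0.10 (SE 0.09) and -0.11 (SE 0.09).

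PARP9 and DTX3L form a complex of an ADP-ribosyltransferase and a ubiquitin ligase, and PARP14 is a related ADP-ribosyltransferase. Dtx3l read 10.22, 10.15, 10.04 and 10.35 in controls and 9.93, 9.94, 10.49 and 10.08 in deleted uteri. Replicate 3 was the highest of all 8 arrays and replicates 1 and 2 were below every control. The log2 differences of Dtx3l, Parp9 and Parp14 were -0.08 (SE 0.13), -0.04 (SE 0.10) and -0.08 (SE 0.17), and without replicate 3 they were -0.21, -0.15 and -0.26.

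The guanylate-binding proteins, GTPases that attack the membranes around intracellular pathogens and are induced strongly by interferon gamma, had lower means in deleted uteri in both measured members, neither past the test. Gbp7 read 10.64, 10.14, 10.06 and 10.67 in controls and 9.62, 9.95, 10.02 and 9.86 in deleted uteri. The groups did not overlap, but control replicates 2 and 3 came close to the highest deleted uterus while control replicates 1 and 4 were well above it. The log2 difference was -0.52 (SE 0.16) and did not pass (adjusted p = 0.065, limma; from 0.066 to 0.157 with any 1 array left out). Gbp3 read 10.23, 9.77, 9.99 and 10.51 in controls and 9.22, 9.54, 9.91 and 9.64 in deleted uteri, and overlapped by the single value on replicate 3. Its log2 difference was -0.55 (SE 0.18, adjusted p = 0.079, limma). On the probe set shared by Gbp2 and Gbp2b the controls read 11.11, 10.04, 9.97 and 10.93 and the deleted uteri 10.21, 10.07, 10.35 and 9.95, so that again control replicates 1 and 4 were highest. The probe set shared by Gbp6 with Gbp4, Gbp8, Gbp9, Gbp10 and Gbp11 read 10.65, 9.79, 9.90 and 10.50 in controls and 9.86, 9.86, 10.85 and 9.75 in deleted uteri.

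Psmb8 and Psmb9 encode subunits of the immunoproteasome, and Tap1 a subunit of the transporter that brings peptides to class I molecules. Tap1 read 10.06, 9.64, 9.66 and 10.15 in controls and 9.88, 9.69, 9.85 and 9.57 in deleted uteri. The genotypes overlapped, control replicates 1 and 4 were highest, and replicate 3 did not stand out. The log2 differences of Tap1, Psmb8 and Psmb9 were -0.13 (SE 0.13), -0.11 (SE 0.08) and -0.10 (SE 0.08). Tap1 and Psmb9, with Ddx58, Gbp3 and Gbp7, were the 5 members in which replicate 3 lay below the control mean.

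Leaving out Foxa2-deleted replicate 3 lowered the difference in 31 of the 32 members, Psmb9 being the exception, and gave calls in both directions. A difference falls whenever the array left out lies above the mean of the other deleted uteri. Replicate 3 was singled out for its high values in these genes, so this downward shift restates that choice and is no separate result. Oas3 and Oasl1 passed as higher and Ddx58, Irf9 and Trim25 as lower (limma), 2 and 3 of 32, where 4.16% and 5.21% of all genes passed in these directions in that fit. The calls gained in that fit, of Oas3, Irf9 and Trim25, rest on the same choice of array, as do the median and signs that follow. The median difference over the members became -0.15, beside 0.0042 over all genes, and 23 of the 32 were lower, beside 9717 of 19938 genes. Among the controls no uterus stood apart to this extent, although control replicate 4 was the highest control in 23 of the 32 genes (20.4% of all genes), with a median member 0.13 above the control mean.

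**Figure D3:**
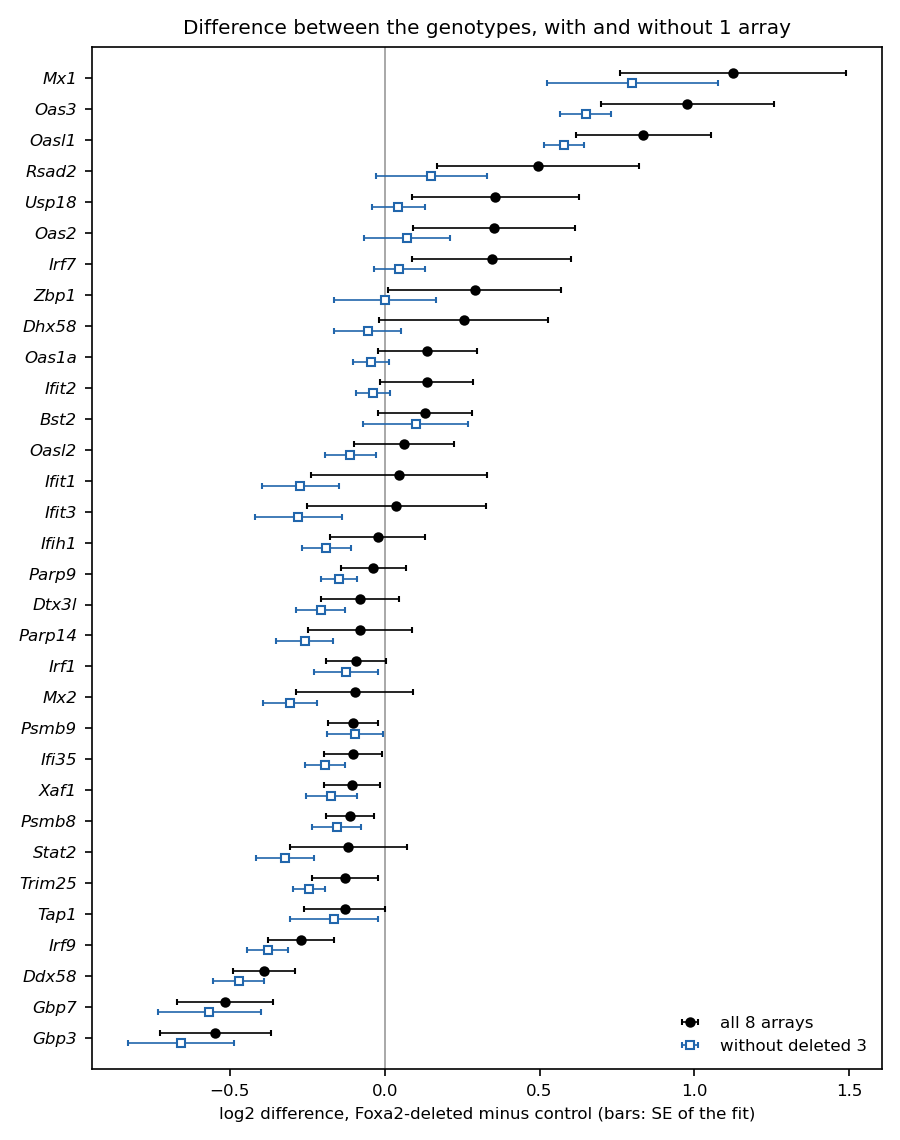
Log2 difference between the genotypes, deleted minus control, for each of the 32 genes with the SE of the limma fit, over all 8 arrays (black circles) and without Foxa2-deleted replicate 3 (open blue squares). Most squares lie to the left of their circles with shorter bars; Oas3 and Oasl1 keep differences of 0.65 and 0.58, and Ifit1 and Ifit3 move from about 0 to -0.27 and -0.28.

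Genes upstream of the members were taken from lists of the pathway, whose counts are to be read against the 4.50% of all genes called higher and 6.58% called lower. Of 21 listed interferon genes 15 were measured and none passed (limma). In 1 of the 15 all deleted values lay above all controls, against 9.55% of all genes. Ifne, which encodes interferon epsilon, read 6.90, 6.91, 7.12 and 6.87 in controls and 7.18, 7.45, 8.18 and 7.42 in deleted uteri. Every deleted value was above every control, and replicate 3 was the highest. Over the 15 interferon genes replicate 3 was the highest deleted uterus in 5 (33.3%), beside 27.4% of all genes. The log2 difference of Ifne was 0.61 (SE 0.19, adjusted p = 0.069, limma), and it passed with Foxa2-deleted replicate 3 left out (adjusted p = 0.028) and with array weights (adjusted p = 0.043). Ifnk had a log2 difference of 0.16 (SE 0.07, adjusted p = 0.13, limma). Ifnb1 and Ifng, the interferon beta and gamma genes, were looked up after their values were seen and had log2 differences of 0.15 (SE 0.09) and -0.13 (SE 0.09). Y-linked genes, which female tissue lacks, had mean levels from 4.32 to 8.99 depending on the probe set, so that values of the interferon genes in this range cannot be told from background.

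Of 9 receptor and kinase genes measured 2 fell and none rose. Jak2, the kinase of the interferon gamma receptor, read 11.00, 11.27, 11.23 and 11.20 in controls and 10.57, 10.55, 10.74 and 10.73 in deleted uteri. The groups did not overlap and replicate 3 did not stand apart. Jak2 fell by 0.53 (SE 0.07, adjusted p = 0.0064, limma), a call kept with each array left out in turn. Jak1, shared by both receptors, fell by 0.33 (SE 0.08, adjusted p = 0.041, limma), and its call held with Foxa2-deleted replicate 2 left out and was lost without any other single array (adjusted p up to 0.118) and with array median centring (adjusted p = 0.055). The receptor gene Ifngr2, named after its values were seen, read 12.44 on replicate 3 and from 11.38 to 11.63 on the other 7 arrays.

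Of 24 genes of interferon induction 20 were measured, and 1 fell. This was Irf8, a factor of dendritic cells and macrophages, by 0.24 (SE 0.06, adjusted p = 0.030, limma), which no longer passed when control replicate 1, 3 or 4 was omitted (adjusted p up to 0.092) and under 3 other scalings (adjusted p from 0.054 to 0.067). Of 18 negative regulators all were measured, and 1 fell. This was Nlrc3, a brake on nucleic acid sensing, by 0.31 (SE 0.08, adjusted p = 0.040, limma), a call that held without Foxa2-deleted replicate 1 or 4 and was lost without any of the other 6 arrays (adjusted p up to 0.113) and with array median centring (adjusted p = 0.0501).

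Other targets of the interferons were set beside the members. Counts in these lists too are to be read against the 4.50% and 6.58% of all genes called higher and lower. Of 60 other type I interferon-stimulated genes 52 were measured, none rose and 2 fell, no larger a share than over all genes, with a median difference of -0.04. These were Aim2, a cytosolic DNA sensor, by 0.36 (SE 0.08, adjusted p = 0.033, limma), and Trim21, a cytosolic antibody receptor, by 0.23 (SE 0.06, adjusted p = 0.040, limma). Aim2 no longer passed with any of controls 2, 3 and 4 or deleted uteri 1 and 3 omitted (adjusted p up to 0.097), and with 1 array left out the call of Trim21 held only without Foxa2-deleted replicate 3 (adjusted p up to 0.112 otherwise). Each of 3 other scalings ended that call too (adjusted p from 0.073 to 0.091). Replicate 3 was the highest deleted uterus in 41 of these 52 genes (78.8%), beside 27.4% of all genes. Their mean relative to the controls was -0.13, -0.15, 0.30 and -0.08 on the deleted uteri in the order of their numbers. That of the members was -0.11, -0.12, 0.61 and -0.06, and only replicate 3 lay above the control mean in both.

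Of 26 other genes induced by interferon gamma 20 were measured, 4 fell and none rose, with a median difference of -0.15. Wars, which encodes the tryptophanyl-tRNA synthetase, read 10.85, 10.75, 10.71 and 10.82 in controls and 10.11, 10.21, 10.15 and 10.12 in deleted uteri. The groups were wide apart, no array stood out, and Wars fell by 0.64 (SE 0.05, adjusted p = 3.8e-04, limma). Iigp1, an immunity-related GTPase, read 10.64, 9.73, 9.81 and 10.75 in controls and 9.17, 9.22, 9.03 and 8.59 in deleted uteri. It fell by 1.23 (SE 0.25, adjusted p = 0.022, limma), with control replicates 1 and 4 high as in Gbp3 and Gbp7, and its call was lost without either of these (adjusted p = 0.055 and 0.062). The adhesion genes Icam1 and Vcam1 fell by 0.39 (SE 0.07; adjusted p = 0.012, limma) and 0.48 (SE 0.11; adjusted p = 0.032). Vcam1 no longer passed with any of controls 1, 2 and 4 or deleted uterus 1 omitted (adjusted p up to 0.095). Nos2, the inducible nitric oxide synthase, was named after its values were seen and read from 7.75 to 7.93 in controls and 7.92, 8.50, 10.05 and 8.50 in deleted uteri, with adjusted p = 0.13 (limma). Of 24 other class I presentation genes 16 were measured and 1 fell, the peptidase gene Erap1 by 0.21 (SE 0.05, adjusted p = 0.039, limma), a call lost under 3 other scalings (adjusted p from 0.067 to 0.108) and without 5 of the 8 arrays in turn (adjusted p up to 0.114).

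Markers of other cells are given beside these results. Counts in every marker list are to be read against 4.50% of all genes called higher and 6.58% called lower. Of 14 neutrophil markers 4 rose and none fell, and replicate 3 was the highest deleted uterus in 12, beside 27.4% of all genes. The list's mean level ran from 7.40 to 7.59 in controls and from 8.43 to 9.28 in deleted uteri. It was 1.05, 0.93, 1.77 and 0.93 above the control mean on the deleted uteri in the order of their numbers. The median over the 14 genes was lower, 0.47, 0.32, 1.45 and 0.39 in the same order. Lcn2 and Ltf, which uterine epithelium makes too, rose by 4.25 (SE 0.12) and 4.17 (SE 0.25). Of 4 neutrophil markers chosen after their values were seen, the receptor gene Cxcr2 read 5.86, 5.56, 5.71 and 5.93 in controls and 7.79, 7.41, 9.61 and 7.58 in deleted uteri. Csf3r, S100a8 and S100a9 read 10.49, 8.67 and 9.02 on replicate 3 and up to 9.13, 7.50 and 7.67 on the other deleted arrays. These 4 genes were picked with their values on replicate 3 in view, so their order of arrays supports nothing further.

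Of 17 pan-epithelial markers 8 rose and none fell, and replicate 3 was the highest deleted uterus in 15, beside 27.4% of all genes. Their mean level ran from 9.86 to 10.02 in controls and from 10.30 to 11.25 in deleted uteri. Of 17 NK and T cell markers 10 fell and none rose, with a mean level from 8.31 to 8.43 in controls and from 7.68 to 8.03 in deleted uteri. Klrd1, an NK cell receptor subunit, fell by 1.05 (SE 0.07, adjusted p = 3.5e-04, limma). Of 16 endothelial markers 10 fell and none rose, with a mean level from 10.41 to 10.50 in controls and from 9.64 to 10.18 in deleted uteri. Of 14 macrophage and monocyte markers 1 rose and none fell, with a mean level from 9.78 to 10.16 in controls and from 9.67 to 10.26 in deleted uteri. That mean was highest on replicate 3, the highest deleted uterus in 6 of the 14 (42.9%), beside 27.4% of all genes. Of 8 plasmacytoid dendritic cell markers, a cell type known for making type I interferon, 1 rose and 1 fell, with a mean level from 8.50 to 8.64 in controls and from 8.55 to 8.67 in deleted uteri. Of 9 conventional dendritic cell markers 3 fell, with a mean level from 8.39 to 8.55 in controls and from 8.09 to 8.25 in deleted uteri. Of 10 endometrial gland markers 5 fell and none rose, with a mean level from 8.79 to 9.28 in controls and from 7.61 to 7.98 in deleted uteri. Spink1 of that list fell by 4.28 (SE 0.26), and Cxcl15 fell by 3.98 (SE 0.11). Of 13 stromal markers 1 rose and 1 fell, and their mean was -0.08, 0.04, -0.33 and -0.08 from the control mean on Foxa2-deleted replicates 1, 2, 3 and 4, lowest on replicate 3. In lists as short as those of macrophages and monocytes, plasmacytoid dendritic cells and stroma, 1 call in a direction cannot be told from the shares over all genes. What part any of these cells had in the values of the interferon-stimulated genes was not tested.

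**Figure D4:**
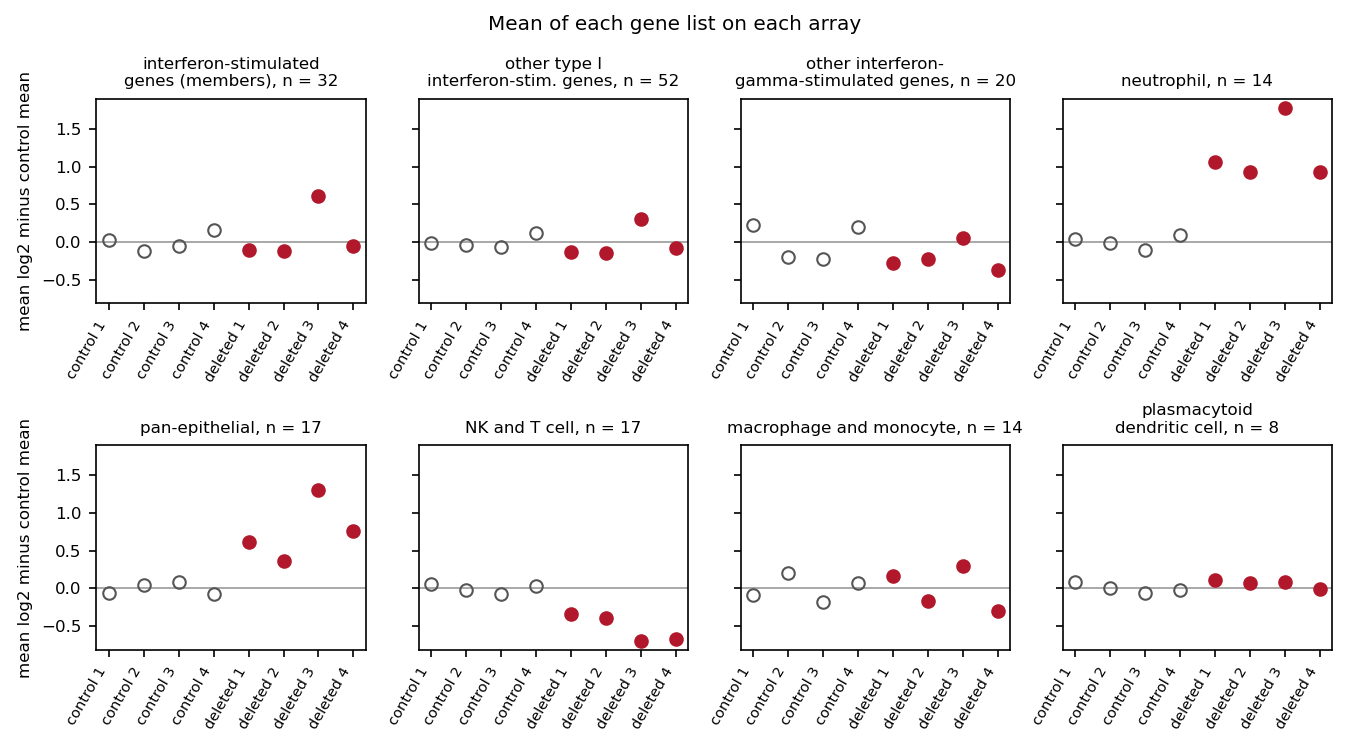
Mean of each gene list on each array, relative to the mean of the 4 controls on the log2 scale, with controls as open grey and Foxa2-deleted uteri as filled red points and n the number of genes measured. Foxa2-deleted replicate 3 is the highest array for the 32 interferon-stimulated genes (0.61) and the 52 other type I targets (0.30). It is also highest for the neutrophil (1.77), pan-epithelial (1.31) and macrophage and monocyte markers (0.30, with control replicate 2 at 0.20). NK and T cell markers are lower on all 4 deleted arrays (-0.34, -0.39, -0.69 and -0.67 in the order of their numbers).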

How the data were processed

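Total RNA from 8 whole uteri, 4 per genotype, was labelled with biotin from 150 ng per sample, per the labels' protocols, with 1 array per uterus. The labels call the replicates biological, so p-values rest on the spread between animals, pooled over both genotypes and moderated across genes. In most members this spread was larger in deleted uteri than in controls, which the pooled error does not carry. The deposited values are log2 intensities that the authors made with RMA (background correction, normalisation across arrays and 1 summary value per probe set), per the submitters' processing notes, which also name limma. The sources used here give no version, genome build or probe annotation. RMA compresses dim probe sets, which understates their fold changes, and no detection call comes with the values. The number of arrays limits the precision.

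Of 35556 probe sets 21789 had 1 gene symbol in GEO's platform annotation, 1621 several and 12146 none. Only the first were tested, with the highest-mean probe set per gene, which gave 19938 genes, of which 19856 matched a RefSeq gene table by Entrez identifier, all 32 members among them. Differences were fitted by linear models with moderated errors (limma 3.58.1, R 4.3.3), genotype as the only term, with Benjamini-Hochberg adjustment over all genes and a threshold of 0.05. No filter on low values was used. SE is that of the moderated fit and SD is over 4 uteri. Deviations of same-numbered replicates correlated at 0.057, -0.051, -0.026 and -0.0088, so the numbers were not used as pairs. The steps were tested on simulated data with 19938 genes for this comparison: 78% of 50 genes at 1.5-fold, 98% of 50 at 2-fold, 98% of 50 at 4-fold and 100% of 50 at 2-fold lower were called, with 8 false calls. Each simulated gene had the same spread in both groups, which these members did not.

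The members, gene lists and naming rule were chosen with earlier results of these data known. Every measured member was described, with array values for those past the threshold, those whose groups did not overlap and the highest-mean member of each role; array values of further members were added after they were seen. In each pathway list up to 4 genes past the threshold were named, or, with none past it, the 2 of smallest p, and in marker lists up to 2. Protein sequences were not used here. Promoter sequences are from RefSeq, matched by symbol, and overlapping matches of a motif were all counted.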

Additional observations from a re-analysis of the deposited data

Results flagged for a closer look

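In a group of 4 arrays a value was singled out when its gap to the nearest other value as a share of the group's whole range exceeded Dixon's 95% critical value for 4 samples. Of 64 groups, 32 genes in each of 2 genotypes, 7 held such a value, and chance alone singles out about 1 group in 20. Over all genes tested the share was 6.01% in deleted uteri and 5.54% in controls. The 64 groups come from the same 8 uteri and are not independent, so their count is a description and no test. Foxa2-deleted replicate 3 gave 5 of the 7, each as the highest value of its group. These were Oasl1 at 10.22, Dhx58 at 9.93, Zbp1 at 10.41, Stat2 at 10.70 and Ifit2 at 8.97. In the controls Psmb8 read 9.77 on control replicate 4, the highest of its group, and Parp9 read 9.85 on control replicate 2, the lowest of its group.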

How the results depend on the processing

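Beside the fit reported, 19 others were made: 3 scalings, filters on low values, other choices of probe set, trend and robust moderation, array weights, a replicate block, and each array left out. The 1 higher and 1 lower member became 0 and 0 with all probe sets tested and with the replicate block (adjusted p of Oasl1 0.058 and 0.075, of Ddx58 0.057 and 0.055), 1 and 0 with array median centring, 0 and 1 with trend and robust moderation, and 3 and 2 with array weights (Mx1, Oas3 and Oasl1 higher, Irf9 and Ddx58 lower). Leaving out 1 array gave from 0 to 3 higher and from 0 to 3 lower members. The replicate block gave 1062 calls over all genes and 4 in the pathway lists. The pathway lists, with 11 calls, held 7 with array median centring, 7 with all probe sets tested and 24 with array weights, and from 3 to 18 with 1 array left out. The marker lists, with 46, held 29 without the lower 50% of genes and from 22 to 57 with 1 array left out, and all genes from 556 to 3059. The cause was not tested.

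Of the 32 differences, 21 kept their sign in every fit and 11 did not, none of them called. Ifih1 turned to 0.0109 with quantile normalisation again, to 0.0075 with array median centring and to 0.037 with cyclic loess, and Parp9 to 0.0107 with cyclic loess. With array weights Ifit1 turned to -0.14, Ifit3 to -0.11 and Oasl2 to -0.0281. With 1 array left out the log2 difference ran from -0.27 to 0.26 in Ifit1, from -0.0383 to 0.21 in Ifit2, from -0.28 to 0.18 in Ifit3, from -0.31 to 0.0342 in Mx2, from -0.045 to 0.23 in Oas1a, from -0.11 to 0.16 in Oasl2, from -0.19 to 0.075 in Ifih1, from -0.0558 to 0.36 in Dhx58, from -0.0208 to 0.22 in Bst2, from -0.15 to 0.0217 in Parp9 and from -0.26 to 0.0317 in Parp14. Replicate 3 was the highest deleted uterus in 28 or 29 members under every scaling and choice of probe set tried. The number of arrays, 4 per group with 1 uterus apart, limits the precision.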
